A study of Homo sapiens with 4 samples.

Results

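Of 19912 genes in the deposited count table, 41 named genes of mitosis, the spindle and the kinetochore were followed in GATA2/eGFP-positive endothelial cells of GFI1 knockout and wild-type genotype. They are mitotic kinases, cyclins, checkpoint proteins, centromere and kinetochore proteins, kinesins and spindle proteins, taken by symbol from a fixed list, and all 41 were found and passed the low-count filter. The cells were made from H1, an established line of human embryonic stem cells. They fall into a GFI1 knockout group (GFI1-KO, 2 libraries) and a wild-type group (WT, 2 libraries). Both groups are endothelial cells positive for a GATA2/eGFP reporter, and the labels give no clone number, no allele and no day of differentiation. GFI1 is a transcriptional repressor that acts in the endothelial-to-haematopoietic transition, and the libraries compare GFI1 knockout with wild-type endothelial cells. Nothing in the labels ties replicates to different cultures or clones, and their spread, on which every p-value rests, may therefore be technical.

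No mitotic gene of the 41 passed the test in either direction in GFI1-KO cells, where 0.958% of all tested genes did, so that a count of 0 among 41 is near the share over all genes. The group of genes took 0.709% and 0.649% of all counts in GFI1-KO libraries, against 0.614% and 0.678% in WT libraries. The deep GFI1-KO library lay between the WT libraries, and the shallow one above them. For 39 of the 41 genes the 95% interval of the fold change lay within 2-fold in both directions.

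Cells enter mitosis when CDK1 bound to B-type cyclins is switched on by CDC25 phosphatases and helped by the kinases PLK1 and AURKA. Kinetochores then tie the centromeres to spindle microtubules, and the spindle assembly checkpoint holds the anaphase-promoting complex, a ubiquitin ligase, inactive until all of them are attached. Kinesins and microtubule-bundling proteins build the spindle and its midzone, and the cell is cut apart at cytokinesis. The RNAs of most of these genes are highest in the G2 phase and in mitosis. In bulk RNA their summed level depends on the share of dividing cells and on the mitotic RNA in each. Fewer cycling cells and less mitotic RNA per cycling cell cannot be told apart in these data.

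Many of the genes carry the same short words in front of their start sites, which is why a set of promoters is shown. The cell cycle genes homology region is a hexamer bound by the MuvB core of the DREAM complex, which represses these genes in resting cells and, with MYBL2 and FOXM1, activates them in G2. The CCAAT box is bound by the activator NF-Y. The hexamer was searched as TTTGAA, which on the other strand is written TTCAAA, and in the variant form TTCGAA, which is the same on both strands. The box was searched as CCAAT, which on the other strand is written ATTGG. RefSeq promoter windows of 300 bases, 250 before and 50 after a start in GRCh38.p14, were given for 34 of the 41 genes, as 40 windows. Of these windows 30 (75%) held the hexamer, against 16.4% of all 35116 windows and 11.8% of the 13485 windows of tested genes. CCAAT was in 31 of the 40 (77.5%), against 34.6% of all windows and 34.6% of those of tested genes. Both words were in 25 of the 40 (62.5%), against 6.38% and 4.68%. The hexamer began within 60 bases of a start in 26 of the 40 (65%), against 5.44% and 3.82%. A match is a description of the letters and not a shown binding site.

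The last 130 bases before the start of 10 genes of different roles are printed from RefSeq, 5′ to 3′, with the hexamer and CCAAT words in capitals. The 10 were picked by name and do not stand for all 34 genes. Where a gene had several windows, the one with the most hexamers in this stretch is printed.
CDK1 (chr10:60778348-60778477, plus strand): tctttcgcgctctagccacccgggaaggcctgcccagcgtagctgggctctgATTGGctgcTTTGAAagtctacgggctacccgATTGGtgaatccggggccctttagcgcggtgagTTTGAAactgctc
CCNB1 (chr5:69167020-69167149, plus strand): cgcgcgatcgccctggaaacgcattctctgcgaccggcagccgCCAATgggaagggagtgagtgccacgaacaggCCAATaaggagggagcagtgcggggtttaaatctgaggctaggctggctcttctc
CCNB2 (chr15:59105016-59105145, plus strand): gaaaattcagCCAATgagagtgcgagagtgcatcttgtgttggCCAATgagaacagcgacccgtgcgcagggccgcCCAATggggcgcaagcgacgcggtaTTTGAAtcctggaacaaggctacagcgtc
PLK1 (chr16:23678759-23678888, plus strand): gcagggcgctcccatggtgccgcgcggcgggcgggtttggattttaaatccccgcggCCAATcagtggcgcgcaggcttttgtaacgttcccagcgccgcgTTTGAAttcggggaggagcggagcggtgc
BUB1B (chr15:40160939-40161068, plus strand): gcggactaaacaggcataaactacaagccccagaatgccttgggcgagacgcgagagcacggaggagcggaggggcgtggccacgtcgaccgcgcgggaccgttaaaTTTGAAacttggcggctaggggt
CENPA (chr2:26785926-26786055, plus strand): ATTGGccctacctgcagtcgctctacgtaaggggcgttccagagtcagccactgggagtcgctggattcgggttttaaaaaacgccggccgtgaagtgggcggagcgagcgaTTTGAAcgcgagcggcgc
KIF4A (chrX:70289974-70290103, plus strand): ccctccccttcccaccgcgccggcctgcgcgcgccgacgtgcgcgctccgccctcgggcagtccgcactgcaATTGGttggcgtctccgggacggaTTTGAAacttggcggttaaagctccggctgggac
KIF11 (chr10:92593000-92593129, plus strand): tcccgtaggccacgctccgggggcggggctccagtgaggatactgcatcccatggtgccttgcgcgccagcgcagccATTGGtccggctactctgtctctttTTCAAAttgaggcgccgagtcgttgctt
PRC1 (chr15:90994536-90994665, minus strand): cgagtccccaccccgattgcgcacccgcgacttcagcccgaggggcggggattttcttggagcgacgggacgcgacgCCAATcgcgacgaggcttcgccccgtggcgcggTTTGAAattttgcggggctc
MKI67 (chr10:128126424-128126553, minus strand): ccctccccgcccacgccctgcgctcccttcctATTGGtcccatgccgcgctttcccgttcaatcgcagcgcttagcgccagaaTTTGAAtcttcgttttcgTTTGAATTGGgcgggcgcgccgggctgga
In CCNB2 and PLK1 the hexamer began 29 bases before the start, in KIF11 28 and in KIF4A 34. CCNB1 had no hexamer in its window and CCAAT at 87 and 55 bases before the start. BUB1B had the hexamer at 23 bases and no CCAAT. In MKI67 the hexamer at 29 bases and an ATTGG share 1 base.

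GFI1-KO replicate 1 was shallow, with 146584 counts, against 2332621 in GFI1-KO replicate 2 and 2239214 and 2417410 in WT. The 71 genes with histone cluster symbols took 0.216% of counts in GFI1-KO replicate 1 and 0.0015% in GFI1-KO replicate 2, against 0.00214% and 0.00277% in WT. GFI1 itself had 3 and 44 counts in GFI1-KO libraries, against 131 and 139 in WT. CPM are read counts scaled to a common library size after TMM adjustment. GFI1 was at 19.9 and 19.6 CPM in GFI1-KO, against 58.5 and 58.3 CPM in WT (log2 fold change -1.57, edgeR adjusted p = 0.0215), so part of its RNA remained. GATA2, the gene named in the reporter, was at 139 and 124 CPM in GFI1-KO, against 293 and 252 CPM in WT (-1.09, edgeR adjusted p = 0.0376). The groups thus differed in the RNA of that gene. The 12 pan-endothelial markers summed to 9301 and 10415 CPM in GFI1-KO, against 7058 and 7297 CPM in WT. EMCN and CD34 rose among them, by 2.38 and 1.02 on the log2 scale (adjusted p = 0.00959 and 0.0357), and CD34 did not pass without either WT library or with the newer dispersion, upper-quartile scaling or the 5 CPM filter. The other 10 did not pass. KDR held the largest share of the sum, and PECAM1 was at 344 and 324 CPM in GFI1-KO, against 443 and 388 CPM in WT. PTPRC, NANOG and 7 globin genes were at 0 in every library, which allows up to 19.9 CPM in GFI1-KO replicate 1 and up to 1.34 CPM in the others. Mesenchymal markers summed to 2232 and 2376 CPM in GFI1-KO, against 2978 and 2143 CPM in WT. Stem cell markers, most of it LIN28A, summed to 609 and 579 CPM in GFI1-KO, against 754 and 787 CPM in WT. Leukocyte markers, most of it LAPTM5, summed to 212 and 263 CPM in GFI1-KO, against 268 and 279 CPM in WT. Erythroid and megakaryocyte markers summed to 6.62 and 9.79 CPM in GFI1-KO, against 26.4 and 41.1 CPM in WT. The GFI1-KO sums were mostly PF4, at 6.62 and 5.34 CPM in GFI1-KO, against 1.34 and 0 CPM in WT. These are 1 and 12 counts in GFI1-KO, against 3 and 0 in WT. The 1 count is the whole sum of GFI1-KO replicate 1 and is under the floor of 3 counts, 19.9 CPM there. The WT sums were mostly KLF1 and ITGA2B, which had 0 counts in GFI1-KO replicate 1. Both did not pass (adjusted p = 0.0790 and 0.0893), but were lower past the threshold in GFI1-KO with the replicate block, with no low-count filter and with GFI1-KO replicate 1 left out. The part of these differences in the values below was not tested.

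Together the 41 genes summed to 6883 and 6743 CPM in GFI1-KO libraries, against 6137 and 6882 CPM in WT libraries. The means were 6813 ± 98.8 CPM in GFI1-KO and 6510 ± 527 CPM in WT (SD, n = 2 each), a ratio of 1.05 that is given with no test. WT replicate 2 was 1.12 times WT replicate 1, so the ratio between genotypes was smaller than that between the WT libraries. As shares of all counts, the exact 95% binomial intervals ran from 0.667% to 0.753% in GFI1-KO replicate 1 and from 0.639% to 0.660% in GFI1-KO replicate 2, against 0.604% to 0.624% in WT replicate 1 and 0.668% to 0.689% in WT replicate 2. GFI1-KO replicate 2 lay between the WT libraries. The intervals are computed within each library and leave out the spread between libraries. Reads without molecular identifiers are not independent molecules, so the intervals may be too narrow even for counting error.

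**Figure D1:**
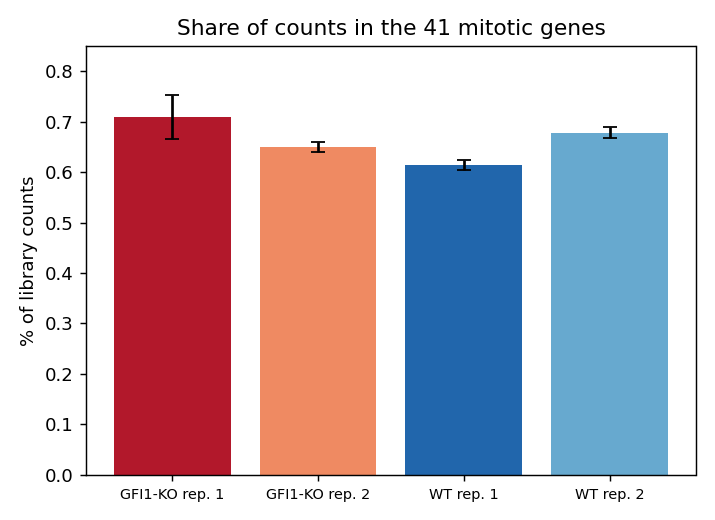
Percent of each library's counts in the 41 mitotic genes (bars from 0, exact 95% binomial intervals), for the 2 GFI1-KO and 2 WT libraries. All bars lie between 0.614% and 0.709%, and GFI1-KO replicate 2 stands between the WT libraries.

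Gene by gene, edgeR's quasi-likelihood test with Benjamini-Hochberg adjustment over 11380 genes called 0 of 41 higher and 0 lower at an adjusted p under 0.05, beside 0.958% of all tested genes (0.773% higher and 0.185% lower). The count at an unadjusted p under 0.05 was also 0, where all tested genes had 9.35%. DESeq2 and limma-voom each called 0, with 0 at an unadjusted p under 0.05. The smallest adjusted p was 0.639 and the smallest unadjusted p 0.0841, both of NUF2. Log2 fold changes (GFI1-KO over WT) ran from -0.36 for AURKA to 0.47 for NUF2, with 25 above and 16 below 0. Their median was 0.048, against -0.024 over all tested genes. Of the 41, 35 (85.4%) lay within 0.25 of 0, against 49.8% of all tested genes, whose counts were lower: the median tested gene had 86 counts in GFI1-KO replicate 2, and the median of these 41 had 315. Among genes with a mean of 30 to 700 CPM, it was 34 of 40 mitotic genes against 58.2% of 6473 tested genes. For 29 of the 41 the GFI1-KO and WT values overlapped. In 8 (18.6% of all tested genes) both GFI1-KO libraries were above both WT libraries, and in 4 (22.7% of all tested genes) both were below.

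A missed threshold does not show that levels were equal, so the intervals are given. For 39 of the 41 genes the 95% interval of the log2 fold change stayed within 1 of 0, which is 2-fold. The exceptions were NUF2, whose interval reached 2.02-fold, and PRC1, with 1 to 13 counts a library. For 13 genes it stayed within 1.5-fold. Without the shallow GFI1-KO replicate 1, 40 genes were within 2-fold and 16 within 1.5-fold, and the 41 values ran from -0.24 to 0.43 with a median of 0.062. In 5 simulated data sets at these depths, with 200 genes changed among 11133 to 11160 tested, this test found 83.9% of 4-fold and 30.4% of 2-fold changes for GFI1-KO over WT. The changed genes were drawn from all genes that passed the filter, whose counts were mostly lower than those of the 41. The rates for the 41 genes themselves were not simulated.

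**Figure D2:**
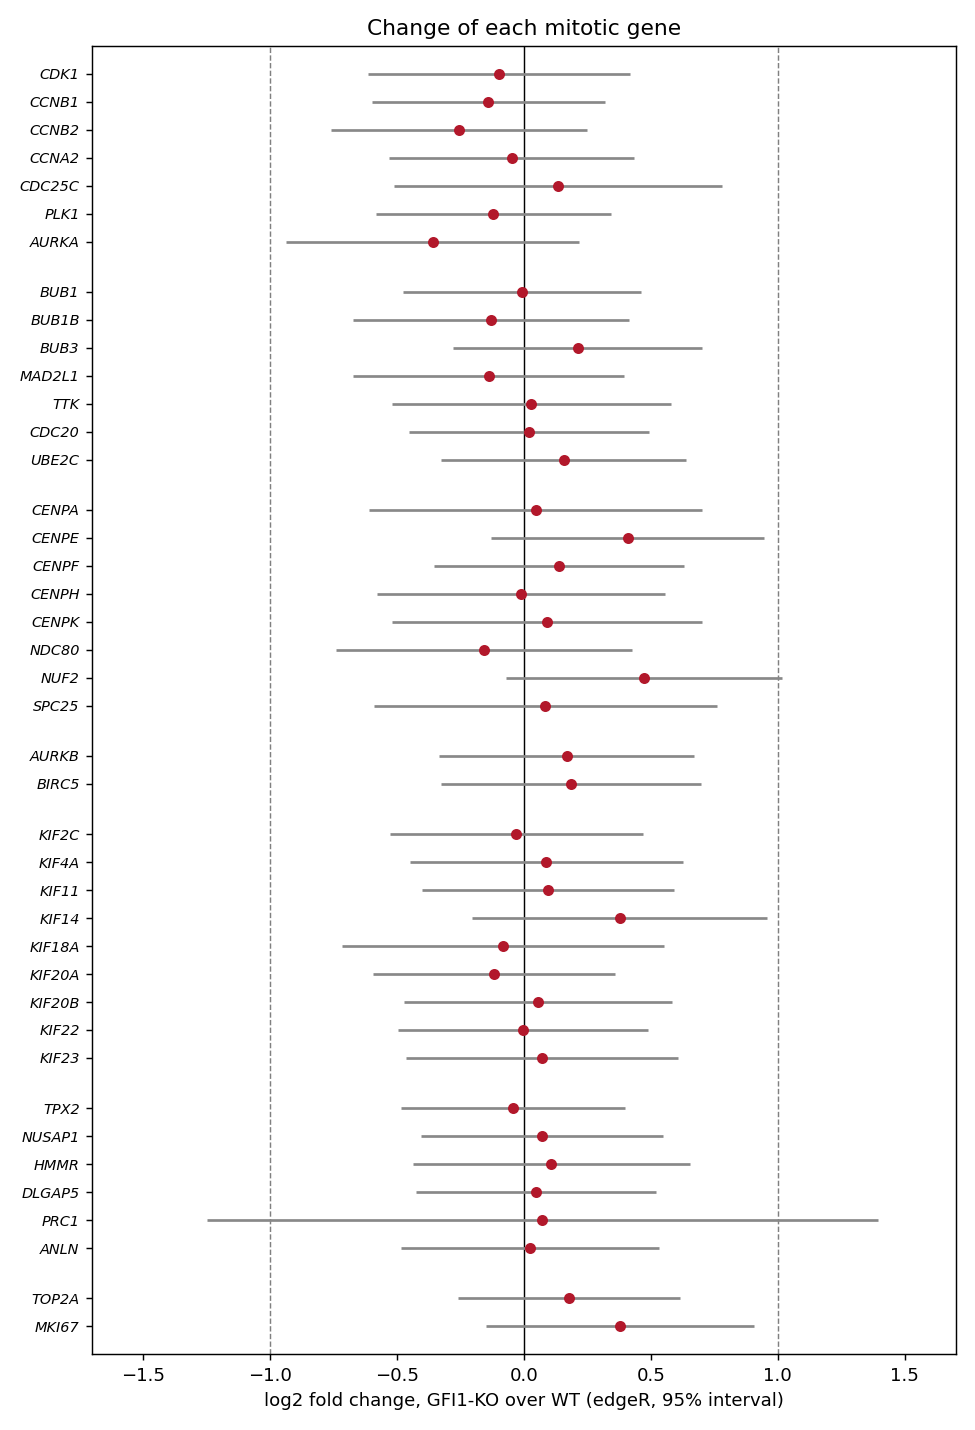
Log2 fold change of each mitotic gene, GFI1-KO over WT (points), with its 95% interval from edgeR (bars); dashed lines mark 2-fold, and genes are grouped by role. Each interval crosses 0, and only those of NUF2 and PRC1 cross a dashed line.

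The genes of mitotic entry had the lowest median of the role groups, -0.12, with 6 of 7 values below 0 and none past the test. Their summed level was 1027 and 1086 CPM in GFI1-KO, against 1165 and 1183 CPM in WT. CDK1, the kinase that drives mitotic entry (chromosome 10, 60778331 to 60794852, GRCh38), had 18 and 455 counts in GFI1-KO, against 441 and 434 in WT. That is 119 and 203 CPM in GFI1-KO, against 197 and 182 CPM in WT, so the deep GFI1-KO library was above both WT libraries and the shallow one below. Its log2 fold change was -0.097 (SE 0.24, adjusted p = 0.972), or 0.096 with the shallow library left out. CCNB1, the cyclin that activates CDK1 in mitosis (chromosome 5, 69167010 to 69178245), was at 219 and 226 CPM in GFI1-KO, against 240 and 252 CPM in WT. CCNB2, its B-type partner, was at 106 and 111 CPM in GFI1-KO, against 132 and 130 CPM in WT. In both B-type cyclins the groups did not overlap, yet the log2 fold changes of -0.14 (SE 0.22) and -0.25 (SE 0.24) did not pass, with adjusted p of 0.943 and 0.868. CCNA2, the cyclin of S phase and G2, was at 199 and 174 CPM in GFI1-KO, against 178 and 197 CPM in WT (-0.049, SE 0.23, adjusted p = 0.987).

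AURKA, the kinase of centrosome maturation and spindle poles (chromosome 20, 56369389 to 56392337), had the lowest log2 fold change of the 41, -0.36 (SE 0.27, adjusted p = 0.811). It was at 46.4 and 98.4 CPM in GFI1-KO, against 115 and 107 CPM in WT. The value of GFI1-KO replicate 1 rests on 7 counts, with a counting interval of 18.6 to 95.5 CPM, and the log2 fold change was -0.17 with that library left out and -1.24 with GFI1-KO replicate 2 left out. PLK1, the polo-like kinase of entry and centrosomes, was at 272 and 235 CPM in GFI1-KO, against 267 and 270 CPM in WT (log2 fold change -0.12, SE 0.22, adjusted p = 0.956). CDC25C, the phosphatase that removes the inhibitory phosphates of CDK1, was the entry gene above 0, at 0.13 (SE 0.31, adjusted p = 0.968). It was at 66.2 and 40.1 CPM in GFI1-KO, against 36.6 and 44.5 CPM in WT, with 10 counts in the shallow library.

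The 7 checkpoint and anaphase-promoting complex genes had a median of 0.020, 4 above and 3 below 0. BUB1, a kinase that recruits checkpoint proteins to kinetochores, was at 192 and 227 CPM in GFI1-KO, against 206 and 227 CPM in WT (-0.0070 on the log2 scale, SE 0.22, adjusted p = 0.999). TTK, the MPS1 kinase that starts checkpoint signalling, was at 53.0 and 82.3 CPM in GFI1-KO, against 77.3 and 71.8 CPM in WT (0.028, SE 0.26, adjusted p = 0.997). The GFI1-KO libraries lay on either side of the WT pair. BUB3, which binds BUB1 and BUB1B, was highest of the group at 0.21 (SE 0.23, adjusted p = 0.899), with 172 and 155 CPM in GFI1-KO, against 131 and 146 CPM in WT. MAD2L1, the MAD2 protein that holds CDC20, was lowest at -0.14 (SE 0.25, adjusted p = 0.956), with 66.2 and 89.9 CPM in GFI1-KO, against 91.1 and 94.8 CPM in WT. CDC20, the activator of the anaphase-promoting complex, UBE2C, its ubiquitin-conjugating enzyme, and BUB1B, the BUBR1 protein of the checkpoint, had values of 0.020, 0.16 and -0.13.

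Centromere and kinetochore genes held the highest value of the 41. NUF2, a subunit of the NDC80 complex that grips microtubules (chromosome 1, 163266576 to 163355764), had 12 and 154 counts in GFI1-KO, against 109 and 127 in WT. It was at 79.5 and 68.5 CPM in GFI1-KO, against 48.7 and 53.3 CPM in WT, and the groups did not overlap. The log2 fold change was 0.47 (SE 0.26, 95% interval -0.071 to 1.02, adjusted p = 0.639), and 0.43 without GFI1-KO replicate 1. Its complex partners did not show the same values. NDC80 itself was at 39.7 and 66.8 CPM in GFI1-KO, against 59.8 and 77.2 CPM in WT (log2 fold change -0.16, SE 0.28, adjusted p = 0.953). SPC25 was at 33.1 and 40.5 CPM in GFI1-KO, against 29.03 and 44.9 CPM in WT (0.084, SE 0.32, adjusted p = 0.983). The differences between these 3 subunits were not tested.

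CENPE, the kinesin that carries chromosomes to the spindle equator, was at 245 and 164 CPM in GFI1-KO, against 125 and 160 CPM in WT (log2 fold change 0.41, SE 0.25, adjusted p = 0.730). The 164 CPM of GFI1-KO replicate 2 and the 160 CPM of WT replicate 2 stood close together, and without GFI1-KO replicate 1 the log2 fold change was 0.20. CENPF, a large kinetochore protein of G2 and mitosis, was at 371 and 367 CPM in GFI1-KO, against 271 and 399 CPM in WT (0.14, SE 0.23, adjusted p = 0.9501). The WT libraries lay on either side of both GFI1-KO libraries. CENPA, the histone H3 variant that marks centromeres, was at 33.1 and 35.2 CPM in GFI1-KO, against 32.6 and 34.8 CPM in WT (0.046, SE 0.31, adjusted p = 0.994). CENPH and CENPK, which belong to the inner kinetochore network on CENPA chromatin, had values of -0.011 and 0.091.

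Both genes of the chromosomal passenger complex were slightly above 0. AURKB, its kinase, was at 139 and 126 CPM in GFI1-KO, against 115 and 116 CPM in WT (log2 fold change 0.17, SE 0.24, adjusted p = 0.937), with no overlap. BIRC5, the survivin subunit that targets AURKB to centromeres, was at 186 and 141 CPM in GFI1-KO, against 126 and 146 CPM in WT (0.18, SE 0.24, adjusted p = 0.926). Here the deep GFI1-KO library was between the WT libraries.

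The 9 kinesin genes had a median of 0.056, 5 above and 4 below 0, and summed to 1040 and 1087 CPM in GFI1-KO, against 1005 and 1089 CPM in WT. KIF11, the motor that pushes spindle poles apart, was at 146 and 166 CPM in GFI1-KO, against 134 and 166 CPM in WT (log2 fold change 0.095, SE 0.24, adjusted p = 0.970). KIF14, a midzone kinesin of cytokinesis, was highest at 0.38 (SE 0.27, adjusted p = 0.801), with 126 and 85.5 CPM in GFI1-KO, against 63.0 and 83.5 CPM in WT. Its value ran from 0.22 without GFI1-KO replicate 1 to 0.79 without GFI1-KO replicate 2. KIF20A, which brings the passenger complex to the midzone, was lowest at -0.12 (SE 0.23, adjusted p = 0.960), with 159 and 197 CPM in GFI1-KO, against 207 and 195 CPM in WT. The other 6 had values from -0.081 for KIF18A, which dampens chromosome movements at the plate, to 0.089 for KIF4A, a chromosome-bound motor. Between them were KIF2C, the MCAK depolymerase that corrects attachments, at -0.029, KIF22, a chromosome-arm motor, at -0.0048, KIF20B, a cytokinesis motor, at 0.056, and KIF23, of the centralspindlin complex, at 0.071.

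Among 6 spindle and cytokinesis genes the values ran from -0.041 to 0.11. TPX2, which activates AURKA and nucleates spindle microtubules (chromosome 20, 31739271 to 31801805), had 72 and 1193 counts in GFI1-KO, against 1125 and 1301 in WT. It was at 477 and 531 CPM in GFI1-KO, against 502 and 546 CPM in WT (log2 fold change -0.041, SE 0.21, 95% interval -0.48 to 0.40, adjusted p = 0.990). HMMR, a spindle-pole adaptor, was at 72.9 and 87.2 CPM in GFI1-KO, against 69.2 and 86.4 CPM in WT (0.11, SE 0.26, adjusted p = 0.970). ANLN, the anillin scaffold of the cleavage furrow, was at 172 and 226 CPM in GFI1-KO, against 174 and 237 CPM in WT (0.024, SE 0.24, adjusted p = 0.998), so replicates of a genotype differed more than the genotypes. NUSAP1 and DLGAP5, both microtubule-binding proteins of the spindle, had values of 0.071 and 0.048. NUSAP1 shares 1787 of its 2875 exonic bases with AC087721.2, a protein-coding gene on the same strand. How reads in these shared bases were counted is not stated in the labels.

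PRC1, the bundler of midzone microtubules, could hardly be measured. It had 1 and 12 counts in GFI1-KO, against 11 and 13 in WT (log2 fold change 0.073, SE 0.63, adjusted p = 0.997), and the shallow value is under the floor of 3 counts. PRC1 shares 3181 of its 5525 exonic bases with AC068831.7, a protein-coding gene on the same strand that has its own row in the table, with 3 and 26 counts in GFI1-KO, against 21 and 22 in WT. How reads in shared exons were treated is not stated in the labels, and the level of the PRC1 transcript is therefore uncertain. In all, 17 of the 41 genes share exon bases with another annotated gene, 13 of them with genes of the opposite strand alone. The strand setting of the counting is not given, so reads in the shared bases of such pairs cannot be told apart.

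The proliferation marker MKI67 and the topoisomerase TOP2A were the most abundant of the 41 in CPM. TOP2A, which untangles DNA before segregation (chromosome 17, 40388516 to 40417950), was at 643 and 588 CPM in GFI1-KO, against 530 and 550 CPM in WT (log2 fold change 0.18, SE 0.21, adjusted p = 0.909), with no overlap. MKI67, which coats mitotic chromosomes (chromosome 10, 128096659 to 128126385), had 144 and 1374 counts in GFI1-KO, against 1079 and 1629 in WT. It was at 954 and 612 CPM in GFI1-KO, against 482 and 684 CPM in WT (0.38, SE 0.25, adjusted p = 0.762). The deep GFI1-KO library lay between the WT libraries, and the shallow one was above all others, with a counting interval of 805 to 1123 CPM. The log2 fold change was 0.069 when GFI1-KO replicate 1 was left out and 0.72 when GFI1-KO replicate 2 was left out (adjusted p = 0.0678), the smallest adjusted p of any of the 41 under any alternative run.

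**Figure D3:**
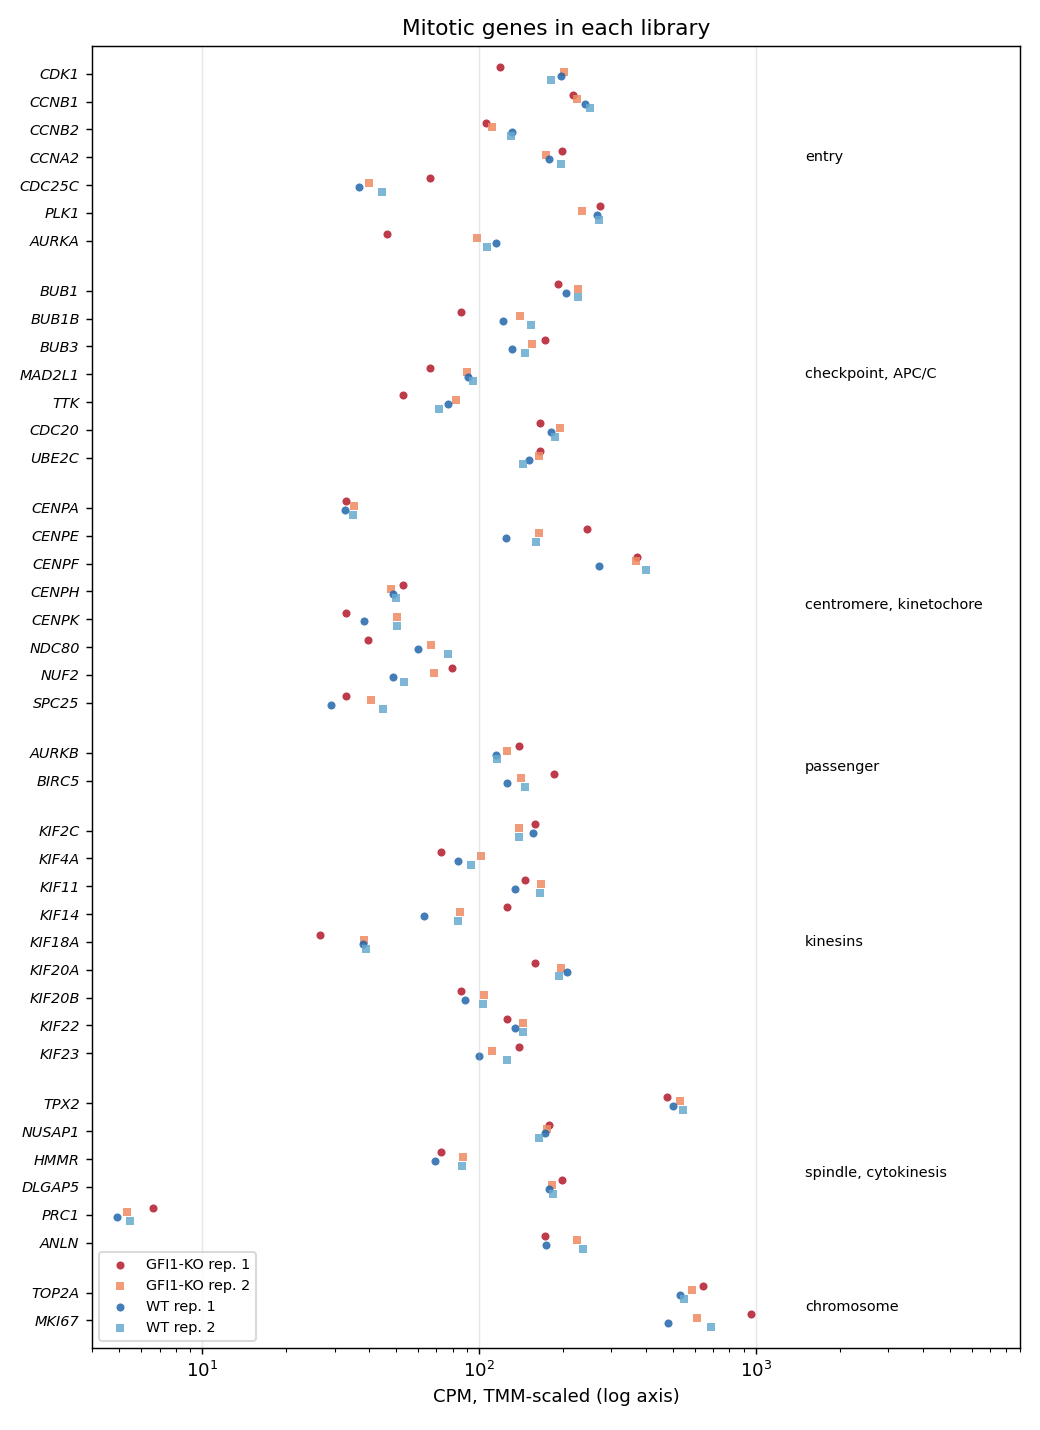
TMM-scaled CPM (log axis) of the 41 mitotic genes in each library, GFI1-KO in red and orange and WT in dark and light blue, grouped by role. GFI1-KO replicate 1 stands farthest from the other points in AURKA, at 46.4 CPM, and also apart in CDK1, NDC80, CENPE, CDC25C and KIF14, while in MKI67 it is at 954 CPM.

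Libraries of 1 genotype also differed from each other. WT replicate 2 over WT replicate 1 ran from -0.16 to 0.63 on the log2 scale, with a median of 0.13 and 33 of 41 above 0. The widest were SPC25 at 0.63, CENPF at 0.56 and MKI67 at 0.50. GFI1-KO replicate 1 over GFI1-KO replicate 2 ran from -1.09 for AURKA to 0.73 for CDC25C, with a median of -0.070. For 36 of the 41 genes the counting interval of GFI1-KO replicate 1 covered the WT mean; CDK1 and AURKA were below it and CENPE, KIF14 and MKI67 above. GFI1-KO replicate 2 alone lay between the WT libraries for 16 genes, above both for 17 and below both for 8. Its log2 distance from the WT mean was smaller than the distance between the WT libraries for 29 of 41. These placements were counted for the 41 genes only. Without the shares over all tested genes, they cannot show whether the 41 differ from other genes.

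Levels of different genes are given per kilobase of exon, with all annotated exons of a gene joined. This length can exceed that of the transcripts present, so the order of genes is approximate. TPX2 had 140 CPM per kilobase in GFI1-KO and 145 in WT, and UBE2C had 128 in GFI1-KO and 115 in WT. CDC20 had 88.8 in GFI1-KO and 90.4 in WT, and CCNB1 had 86.8 in GFI1-KO and 96.2 in WT. TOP2A had 95.6 in GFI1-KO and 83.9 in WT. These are means over the libraries of a genotype. The order of these 3 was not the same in both GFI1-KO libraries, and none of them passed the test between genotypes. The least abundant besides PRC1 was KIF18A, at 6.94 CPM per kilobase in GFI1-KO and 8.25 in WT. CENPK had 9.67 in GFI1-KO and 10.3 in WT, and KIF14 had 14.5 and 10.1.

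Other parts of the mitotic machinery held no called gene either. Of 111 other mitotic genes tested, out of 112 in 6 lists (kinetochore, condensin, cohesin and separase, anaphase-promoting complex, spindle and centrosome, cytokinesis), 0 rose and 0 fell, with 2 at an unadjusted p under 0.05 and a median of 0.0020. Over all tested genes 0.958% were called, so 0 calls are near that share, and 9.35% had an unadjusted p under 0.05. DESeq2 called 0 of them, with 0 at an unadjusted p under 0.05, and limma-voom called 0, with 1. CKAP2L, a spindle protein, was at 166 and 101 CPM in GFI1-KO, against 66.5 and 84.4 CPM in WT (log2 fold change 0.65, SE 0.28, adjusted p = 0.449). PDS5B, a cohesin regulator, was at 172 and 104 CPM in GFI1-KO, against 76.8 and 84.8 CPM in WT (0.60, SE 0.27, adjusted p = 0.501). In both genes GFI1-KO replicate 1 was farthest from WT. The lowest p of the other lists belonged to the kinetochore genes CENPI (0.50, SE 0.33) and KNL1 (0.40, SE 0.28), the condensin subunits NCAPH2 (0.37, SE 0.26) and NCAPH (-0.31, SE 0.27), and the cohesin subunit SMC3 (-0.35, SE 0.27). They also belonged to ANAPC10 (-0.62, SE 0.39) and CDC26 (-0.60, SE 0.51) of the anaphase-promoting complex, the centriole protein CEP152 (-0.58, SE 0.36), the kinesin KIF13A (-0.33, SE 0.26) and the citron kinase gene CIT (0.36, SE 0.29). Their adjusted p ran from 0.729 for CEP152 to 0.851 for NCAPH. Leaving out a library moved most of these values by over 1.5 times. KNL1 ran from 0.12 to 0.94, SMC3 from -1.01 to -0.11, NCAPH2 from 0.19 to 0.58, NCAPH from -0.92 to -0.20 and CEP152 from -1.26 to -0.36. CKAP2L ran from 0.42 to 1.14 and PDS5B from 0.37 to 1.10, each lowest without GFI1-KO replicate 1. The anaphase-promoting complex list had the lowest median, -0.15, with 12 of 17 values below 0 and 0 called.

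Lists of the phases before mitosis also held 0 calls, by edgeR, DESeq2 and limma-voom. By edgeR, 0.958% of all tested genes were called and 9.35% had an unadjusted p under 0.05. For lists of this size, 0 calls are near that share. Of 20 tested genes of mitotic transcription and G2 control the median was -0.10, with 0 at an unadjusted p under 0.05. The smallest p there were those of NFYC, a subunit of NF-Y (-0.42, SE 0.28), and E2F5, an E2F-family repressor (-0.37, SE 0.28). Leaving out a library they ran from -1.20 to -0.30 and from -1.51 to -0.20. Of 20 S phase genes the median was -0.13, again with 0 at an unadjusted p under 0.05. They summed to 1636 and 2374 CPM in GFI1-KO, against 2042 and 2731 CPM in WT, so GFI1-KO replicate 1 was below all others. PCNA, the replication clamp, was at 66.2 and 121 CPM in GFI1-KO, against 141 and 172 CPM in WT (log2 fold change -0.55, SE 0.26, adjusted p = 0.553). TYMS, thymidylate synthase, was at 159 and 235 CPM in GFI1-KO, against 281 and 270 CPM in WT (-0.38, SE 0.23, adjusted p = 0.702). PCNA was at -0.37 with GFI1-KO replicate 1 left out and -1.23 with GFI1-KO replicate 2 left out, and TYMS at -0.23 and -0.78. Of 15 tested G1 cyclins, kinases and inhibitors 0 passed and 3 had an unadjusted p under 0.05 (0 by DESeq2 and 2 by limma-voom, which called 0 as well). CCND2, a D-type cyclin, was at 424 and 57.0 CPM in GFI1-KO, against 60.3 and 48.7 CPM in WT (1.64, SE 0.58, adjusted p = 0.281). Without GFI1-KO replicate 1 it was 0.066. CCND3, another D-type cyclin, was at 72.9 and 65.0 CPM in GFI1-KO, against 87.5 and 124 CPM in WT (-0.67, SE 0.28, adjusted p = 0.415), and at -0.37 on the log2 scale with WT replicate 2 left out.

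**Figure D4:**
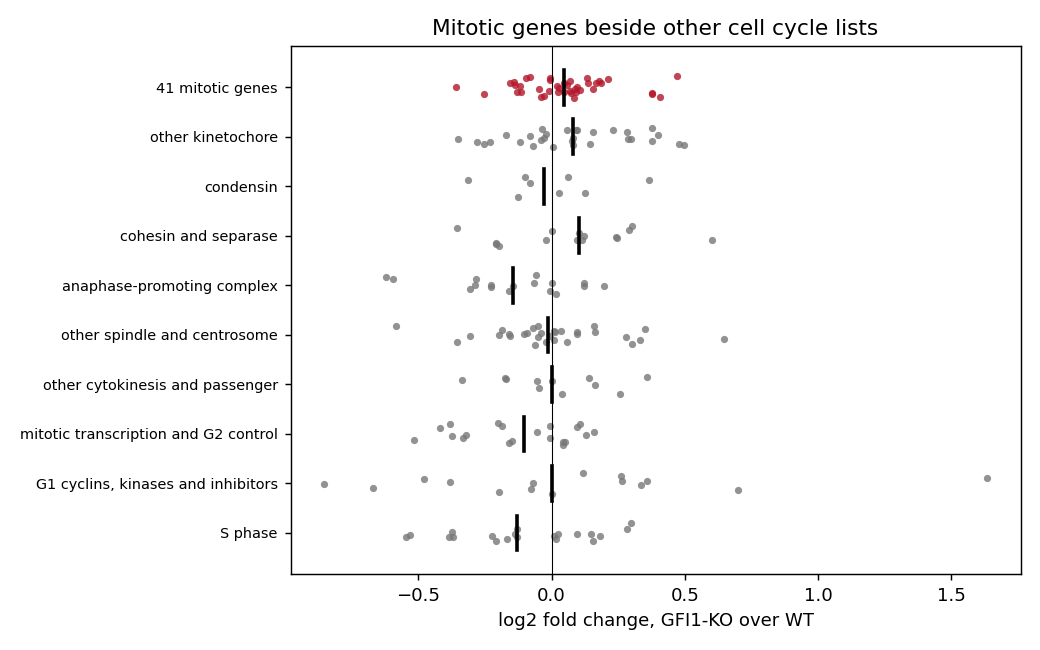
Log2 fold change, GFI1-KO over WT, of each tested gene (points) in the 41 mitotic genes and 9 other cell cycle lists, with the median as a black bar. The medians run from -0.15 for the anaphase-promoting complex to 0.10 for cohesin and separase, and CCND2 at 1.64 stands alone in the G1 list.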

How the data were processed

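RNA sequencing counts of 4 libraries (2 GFI1-KO, 2 WT) were used. The deposited values are whole-number read counts for each gene, not normalized. The submitters' processing notes name DESeq 1.18.1, HTSeq 0.6.0, HISAT2 2.0.4 and SAMtools 1.3.1 beside the builds hg38 and GRCh38, with no roles. The labels state neither the annotation version nor read filters nor the strand setting. Symbols and positions came from GENCODE 29 (19902 of 19912 identifiers matched), promoters from RefSeq.

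Genes were tested with edgeR 4.0.16 in R 4.3.3 (TMM, filterByExpr with minimum count 10 and minimum total count 15, glmQLFit and glmQLFTest with the earlier quasi-likelihood dispersion, genotype as the term, prior count 0.125). The SE of edgeR values was derived from the test's F statistic and the log2 fold change fitted without the prior count. Intervals are centred on that fitted value, use this SE and the test's degrees of freedom, and are not adjusted. DESeq2 1.42.0, limma-voom (limma 3.58.1), other scalings, other filters, the replicate number as a block, and each library left out in turn were the alternatives. The edgeR step was tested on simulated data; 7.14% of its calls there were false. The members and lists were chosen with earlier results of these data known, and no list was tested. Genes given in full follow a rule: fixed members of each role, the extremes of each role and the 3 smallest p; of other lists, called genes and the 2 smallest p.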

Additional observations from a re-analysis of the deposited data

How the results depend on the processing

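The count of 0 called among the 41 mitotic genes held under each of the 13 alternatives, with 3 (AURKA, CENPE and MKI67) at an unadjusted p under 0.05 without GFI1-KO replicate 2 and 0 in the others. Over all genes, 109 calls became 33 with DESeq2, 58 with the newer dispersion, 58 with upper-quartile scaling, 72 with library totals only, 305 without the low-count filter, 50 when requiring 5 CPM on average, and 62 to 373 when leaving out a library. With the replicate block there were 327, all 109 among them. The replicate numbers are tied to nothing shared in the labels; same-numbered libraries deviated together weakly (Pearson r = 0.132 across 11380 genes, which are not independent replicates). With the block the median of the 41 was 0.0072, and no member was called. Leaving out a library moved the median of the 41 between -0.053 (without WT replicate 1) and 0.099, and the ratio of summed CPM between 0.998 and 1.12 (without WT replicate 2). Of 533 refits of single members, 480 kept direction and side of the threshold and 53 had the other sign, in 23 members whose own value was at most 0.16 in size. These were, for the block, CDC20 -0.0013, CENPK -0.045, SPC25 -0.079, KIF2C 0.0072, KIF20B -0.0019 and ANLN -0.049; for DESeq2, TTK -0.035 and CENPH 0.0074; for limma-voom, BUB1 0.023 and KIF22 0.021; and CDC20 -0.0029 with upper-quartile scaling and -0.00080 without the filter. Leaving out a library, values ran from -0.66 to 0.096 for CDK1, -0.11 to 0.093 for CCNA2, -0.019 to 0.71 for CDC25C, -0.19 to 0.026 for PLK1, -0.16 to 0.067 for BUB1, -0.66 to 0.029 for BUB1B, -0.48 to 0.14 for TTK, -0.14 to 0.091 for CDC20, -0.017 to 0.099 for CENPA, -0.10 to 0.46 for CENPF, -0.037 to 0.11 for CENPH, -0.41 to 0.28 for CENPK, -0.78 to 0.0055 for NDC80, -0.20 to 0.43 for SPC25, -0.088 to 0.12 for KIF2C, -0.27 to 0.19 for KIF4A, -0.051 to 0.26 for KIF11, -0.15 to 0.17 for KIF20B, -0.14 to 0.046 for KIF22, -0.059 to 0.31 for KIF23, -0.13 to 0.029 for TPX2, -0.087 to 0.27 for HMMR and -0.25 to 0.26 for ANLN. Of the 18 members that kept their sign, leaving out a library moved 13 by over 1.5 times, MAD2L1 from -0.48 to -0.049, BIRC5 from 0.059 to 0.46, KIF18A from -0.53 to -0.0085 and KIF20A from -0.33 to -0.028 among them. Among other genes the ranges were -0.28 to 0.81 for CENPI, -0.82 to 0.57 for CDC26, -0.48 to 0.034 for KIF13A and -0.024 to 0.98 for CIT. The cause of these changes was not tested. CCND2 passed without the filter, with the block, and when any library but GFI1-KO replicate 1 was left out. Depth limits GFI1-KO replicate 1 most, where the 41 genes had 1 to 144 counts. That library also differed in composition. Histone cluster genes took 0.216% of its counts, against 0.0015% in GFI1-KO replicate 2 and 0.00214% and 0.00277% in WT. What this difference did to the values above was not tested.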

Other observations

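The log2 ratio of WT replicate 2 to WT replicate 1 was higher in mitotic genes with longer exons. Spearman's rho between exon length and that ratio was 0.428 across the 41 genes, given with no p since genes are not independent and share their libraries. Over 10510 tested genes above 0 in every library it was 0.172. Whether the longer mitotic genes differ from other long genes was not tested.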
